A study of Mus musculus with 18 samples.

Results

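The miR-15, miR-16 and miR-195 family was followed in sperm of ICR mice, an outbred strain, through 3 generations. Members were all known miRNAs listed as miR-15a, miR-15b, miR-16, miR-195a, miR-497a or miR-322 with any arm or copy suffix, which gave 13 of 1739 listed mature miRNAs, or 6 of 1008 names once the arms and copies of a name were added up. The 13 members had reads in each of the 16 libraries used and all passed the filter on low counts.

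Small RNA was sequenced in 18 libraries, 3 for each of 6 groups, to look for effects of gas exposure that reach later generations. The exposed founders (F0 NHS) were males given NH3 and H2S from an age of 3 weeks, over a span of 5 weeks, before they sired offspring by normal ICR females. F1 males had no exposure of their own and were bred to normal females when 8 weeks old, and F2 males had none either. The labels do not spell out NHS, and Con names the control group of each generation. The age at semen collection is not given in the sources used here. All groups share the ICR strain and the tissue, and the labels do not say whether replicates are separate animals or pools, so each p-value rests on differences among libraries that may be technical. The lists of F1 NHS replicates 1 and 3 end before the known miRNAs, which leaves replicate 2 as the single F1 NHS library. Its spread was taken to be that of the remaining groups.

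MicroRNAs are cut from hairpin precursors, and either arm of the hairpin (5p or 3p) can be kept as the mature strand that guides silencing proteins to messenger RNAs. Pairing is led by the seed, the stretch near the 5′ end, so miRNAs with one seed share many targets. The miR-15 and miR-16 family is known for restraining cyclins, cyclin-dependent kinases and the anti-apoptotic gene Bcl2. It is found in most tissues, miR-16 being one of the common miRNAs of blood cells, while miR-322, the mouse counterpart of human miR-424, and the miR-497 and miR-195 pair are known from muscle and other mesenchymal tissue.

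The mature sequences, taken from RefSeq on GRCm38.p6, are shown because the family is defined by them. All 13 members matched an entry. The 5p strands, with bases 2 to 8 (the seed) in capitals, read 5′ to 3′:
mmu-miR-16-5p: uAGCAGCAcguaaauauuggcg
mmu-miR-15a-5p: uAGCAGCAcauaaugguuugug
mmu-miR-15b-5p: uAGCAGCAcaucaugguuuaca
mmu-miR-195a-5p: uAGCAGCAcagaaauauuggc
mmu-miR-497a-5p: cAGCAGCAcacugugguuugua
mmu-miR-322-5p: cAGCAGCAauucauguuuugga
All 6 carried the seed AGCAGCA. Against miR-16-5p, miR-195a-5p was equal at 19 of 21 positions, miR-15a-5p at 16 of 22, miR-15b-5p at 14, miR-322-5p at 12 and miR-497a-5p at 11. The other listed miRNA with this seed, miR-195b, had reads in 1 library, at no more than 0.04 reads per 1000000.

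The strands of the opposite arm, in the same notation, carry 7 different seeds:
mmu-miR-16-1-3p: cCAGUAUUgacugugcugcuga
mmu-miR-16-2-3p: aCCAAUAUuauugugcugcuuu
mmu-miR-15a-3p: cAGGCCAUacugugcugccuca
mmu-miR-15b-3p: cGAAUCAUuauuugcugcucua
mmu-miR-195a-3p: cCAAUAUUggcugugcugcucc
mmu-miR-497a-3p: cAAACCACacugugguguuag
mmu-miR-322-3p: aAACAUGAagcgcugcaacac

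The 2 hairpins that yield miR-16 show how the copies differ, with both mature strands in capitals:
Mir16-1 hairpin: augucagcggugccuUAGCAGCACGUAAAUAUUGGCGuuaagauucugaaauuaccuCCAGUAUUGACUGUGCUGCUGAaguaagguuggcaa
Mir16-2 hairpin: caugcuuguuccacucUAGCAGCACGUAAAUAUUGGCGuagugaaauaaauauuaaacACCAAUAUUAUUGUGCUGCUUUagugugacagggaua
The 5p strand is the same in both, so a read of miR-16-5p cannot be assigned to either gene, whereas miR-16-1-3p and miR-16-2-3p differ. Mir16-1 lies at chr14:61631880-61631972 on the minus strand, in an intron of Dleu2, a long noncoding RNA gene, with Mir15a beside it, also intronic (mature arms at chr14:61632038-61632096). Mir16-2 lies at chr3:69009902-69009996 on the plus strand, in an intron of Smc4, a gene of the condensin complex, and shares that gene with Mir15b at chr3:69009772-69009835. Mir497 (mature arms at chr11:70234730-70234790) and Mir195a (chr11:70235042-70235135) lie on the plus strand with 271 bases between their mature arms, and Mir497 overlaps Mir497b on the opposite strand. Mir322 is X-linked, at chrX:53054255-53054349 on the minus strand.

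Levels are given as TPM, the read count of a miRNA divided by all small RNA reads of the library and multiplied by 1000000, with no term for length. miR-16 was the leading name, with a median of 5106 TPM over the 16 libraries, place 17 of 1008 names. It made up 64.2% to 83.4% of the family's reads. miR-15b followed with a median of 992 TPM and 14.1% of the family, and miR-15a, miR-497a, miR-195a and miR-322 had medians of 212, 135, 123 and 104 TPM. The family took 2.15% ± 0.645 of the miRNA reads in F0 Con (SD, n = 3), 2.05% ± 0.244 in F0 NHS, 2.39% ± 1.303 in F1 Con, 2.94% in the F1 NHS library, 1.51% ± 0.0621 in F2 Con and 2.45% ± 1.41 in F2 NHS. These shares overlapped between Con and NHS in each generation, and the F2 NHS libraries had both the lowest share (0.908%) and a share of 3.67%.

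Library totals ranged from 18072900 to 29430555 reads, so 1 TPM rests on at least 18.1 reads. miRNAs took 36.4% to 57.4% of the reads in F0 libraries and 13.3% to 38.7% in those of F1 and F2, and TPM values move with that share. Fold changes below come from edgeR with TMM scaling, under which the median over all 461 names tested lay within 0.14 of 0 on the log2 scale in each comparison of groups. In 6 of the 16 libraries (F0 Con 2, F0 NHS 3, F1 NHS 2, F2 Con 1 and 2, F2 NHS 1) an entry that overlaps a tRNA-Ala gene stood at 2378 TPM or more, against 223.5 or less in the others. These are bulk RNA samples, in which fewer cells of a type and less RNA per cell cannot be told apart.

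**Figure D1:**
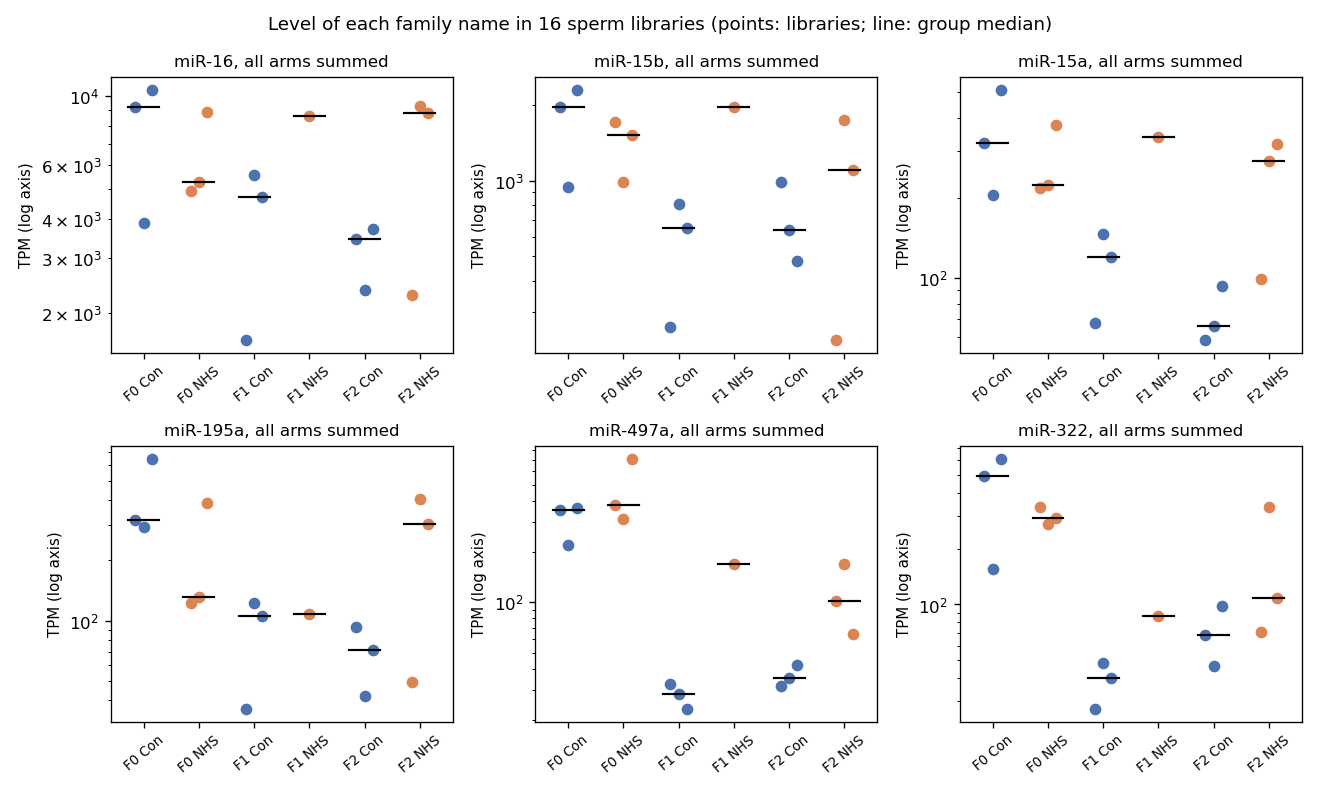
TPM (log axis) of each name with its arms summed, per library (points) and group (line: median). The F1 Con and F2 Con groups have the 2 lowest medians for each of the 6 names. TPM moves with the miRNA share of a library, and the order was not counted over all names.

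For each of the 6 names, the 2 lowest group medians were those of F1 Con and F2 Con. TPM moves with the miRNA share, and how many of all names show this order was not counted. Scaled to library totals, as TPM is, the median log2 fold change over all 461 names was -0.86 for F1 Con against F0 Con. For F2 Con against F0 Con it was -0.58. The highest median belonged to F0 Con for miR-15b, miR-16, miR-195a and miR-322, to F0 NHS for miR-497a and to the F1 NHS library for miR-15a. Of the 30 pairs of groups next to each other in these orders, 24 had overlapping ranges. Groups next to each other by median are the likeliest to overlap, and the F1 NHS library has no range of its own. The count therefore does not test whether groups differ. The steps without overlap were from F0 NHS to F1 Con for miR-15a, from the F1 NHS library to F0 NHS for miR-15b, from F0 NHS to the F1 NHS library for miR-195a, and 3 steps of miR-497a.

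By edgeR, the differences that passed the adjusted test lay between control groups of different generations. miR-497a and miR-322 were lower in sperm of F1 Con and F2 Con males than in F0 Con, and miR-15a was lower in F2 Con than in F0 Con. miR-497a, a miRNA of the miR-195 cluster, stood at 356, 218 and 361 TPM in F0 Con, at 32.6, 28.6 and 23.1 in F1 Con, and at 31.8, 35.5 and 42.5 in F2 Con. Every F0 Con library was thus above every F1 Con and F2 Con library by a wide gap in TPM, which moves with the miRNA share. The log2 fold change was -2.50 (SE 0.51, 5.66 times lower) for F1 Con against F0 Con, with an edgeR adjusted p = 0.0162, and -2.47 (SE 0.51) for F2 Con against F0 Con, with an edgeR adjusted p = 0.0141. For F1 Con against F0 Con it was -3.47 with scaling to library totals and -1.95 with scaling to miRNA totals. Without F1 Con replicate 3 the edgeR adjusted p of the F1 comparison was 0.0632, and the F2 call was lost without F2 Con replicate 1 (0.0591), 2 (0.0708) or 3 (0.0582). Within the 10 libraries low in the tRNA-Ala entry, F1 Con against F0 Con gave -2.53 (edgeR adjusted p = 0.0308), and F2 Con, with 1 library left, gave -2.64 (edgeR adjusted p = 0.146).

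miR-322, the X-linked member, stood at 491, 156 and 612 TPM in F0 Con, at 27.2, 48.4 and 40.02 in F1 Con and at 68.8, 46.6 and 98.3 in F2 Con. Here too the F0 Con range did not overlap either later control group. The log2 fold change was -2.50 (SE 0.59, 5.67 times lower) for F1 Con against F0 Con (edgeR adjusted p = 0.0190) and -1.92 (SE 0.57) for F2 Con against F0 Con (edgeR adjusted p = 0.0454). The F1 call was lost without F0 Con replicate 3 (edgeR adjusted p = 0.0646), without F1 Con replicate 1 (0.0615) or without F1 Con replicate 3 (0.0874). The F2 call held in 4 of 16 fits with 1 library left out (F0 NHS replicate 3 or any F2 NHS library) and was lost in the other 12, with an edgeR adjusted p of up to 0.149. It was also lost with scaling to miRNA totals (0.0871), with a term for the tRNA-Ala entry (0.07) and with a replicate block (0.0595). Within the 10 low libraries the F1 comparison gave -2.76 (edgeR adjusted p = 0.0308), and the F2 comparison, with 1 F2 Con library left, gave -2.05.

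miR-15a stood at 321, 205.6 and 510 TPM in F0 Con, at 67.9, 146 and 119 in F1 Con and at 58.3, 66.1 and 93.4 in F2 Con. The groups of F0 and F2 did not overlap, and the log2 fold change was -1.62 (SE 0.47, edgeR adjusted p = 0.0409), a call lost without any 1 library of F0 Con or F2 Con, F0 NHS replicate 1 or 2, or F1 Con replicate 1 (up to 0.128). Scaling to miRNA totals (0.094) and a term for the tRNA-Ala entry (0.0611) ended it too. F1 Con against F0 Con gave -0.77 (SE 0.46, edgeR adjusted p = 0.26). miR-195a, at 318, 293 and 647 TPM in F0 Con against 36.03 to 123 in F1 Con and 41.95 to 92.6 in F2 Con, had log2 fold changes of -1.45 (SE 0.64) and -2.05 (SE 0.65) that missed the threshold (edgeR adjusted p = 0.132 and 0.0573). The abundant miR-16 gave -0.15 (SE 0.47) and -0.68 (SE 0.47), and miR-15b -0.75 (SE 0.58) and -0.66 (SE 0.58), values that did not pass the threshold.

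Tested over the 3 control groups at once, miR-322 and miR-497a were called (edgeR adjusted p = 0.0247 and 0.0104), 2 of 6 names against 42 of 461 names (9.11%), with 4 of 6 at an unadjusted p under 0.05 (32.8% of all names). The miR-497a call held in each of the 25 other fits run, while that of miR-322 was lost in 6 of 16 fits with 1 library left out and with scaling to miRNA totals (0.0534). DESeq2 called 4 of the 6 names, adding miR-15a and miR-195a, against 117 of 461 (25.4%). In the single comparisons edgeR called 2 of 6 names for F1 Con against F0 Con, beside 55 of 461 (11.9%), and 3 of 6 for F2 Con against F0 Con, beside 46 of 461 (9.98%). DESeq2 called 2 of 6 (24.3% of all names) and 4 of 6 (21.3%). These comparisons share the F0 Con libraries, which the F0 NHS comparison uses as well. Groups did not overlap for 5 of 6 names in each, the exceptions being miR-16 in F1 Con and miR-15b in F2 Con, where 38.6% and 35.8% of all names did not. F2 Con against F1 Con called 0 of 6 names by edgeR (0.217% of 461) and 0 by DESeq2 (2.82%), with 0 at an unadjusted p under 0.05 (11.5%), and the groups overlapped for all 6 (16.3% of names did not overlap).

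Summed marker levels moved with the same groups. The smooth muscle list (miR-143 and miR-145a, both with reads in every library) stood at 62659 to 169501 TPM in F0 Con, 5927 to 13214 in F1 Con and 12105 to 29705 in F2 Con. Its ranges did not overlap between F0 Con and the later control groups. The same held for the skeletal and cardiac muscle, epithelial and germ cell lists below, but not for the red blood cell and leukocyte lists. Among all single names, 38.6% had no overlap between F1 Con and F0 Con, and 35.8% had none between F2 Con and F0 Con. The skeletal and cardiac muscle list (3 names) stood at 467 to 1207, 67.3 to 211 and 91.8 to 165 TPM, and the list of the epithelium of the tract (6 names) at 20899 to 28970, 4694 to 19983 and 6237 to 9248. The germ cell list (16 names, 15 with reads in every library) went the other way, from 6122 to 15589 TPM in F0 Con to 18470 to 36057 in F1 Con and 30491 to 34367 in F2 Con. The red blood cell list (4 names) stood at 10331 to 77971, 16565 to 34395 and 4403 to 11774, and leukocyte names (4) at 475 to 2045, 568 to 2585 and 1088 to 2839. Outside the germ cell list, every marker name had reads in every library, and the part of these cells in the lower miR-497a and miR-322 was not tested.

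**Figure D2:**
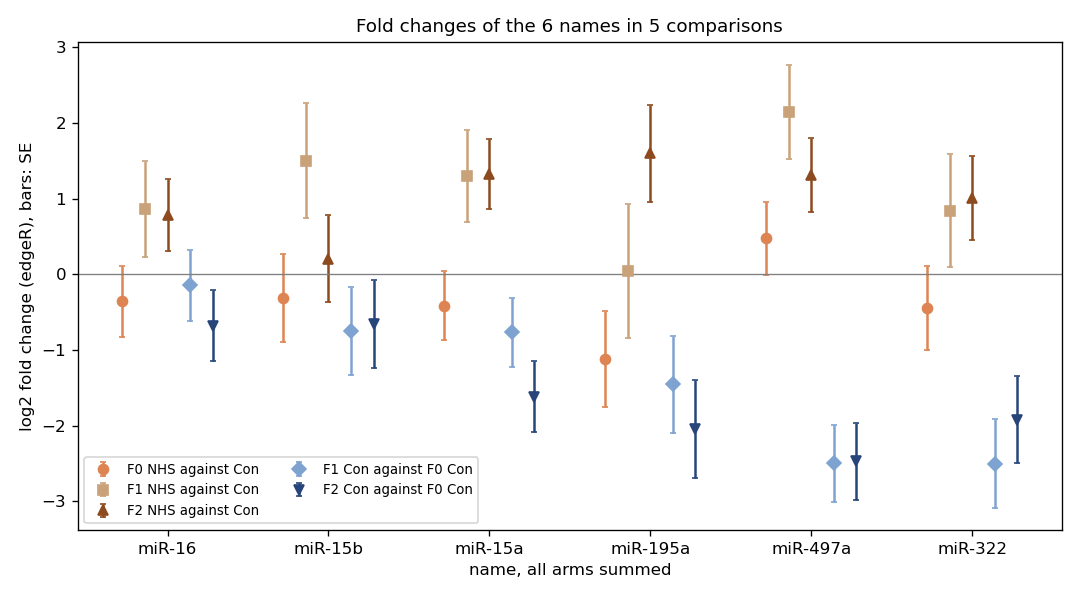
log2 fold changes of the 6 names (points, edgeR) with their SE (bars) in 5 comparisons. All 6 names lie below 0 in both comparisons of control groups, with miR-497a lowest in F2 Con and level with miR-322 in F1 Con, while 5 of 6 names lie below 0 for NHS in F0 and all 6 above 0 in F1 and F2.

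The comparison of NHS with Con within F0 asks what direct exposure of the males does to the family in sperm. With the arms summed, 0 of the 6 names were called by edgeR, as were 0% of the 461 names tested, and 0 of 6 had an unadjusted p under 0.05 (9.76% of all names). DESeq2 called 0 of 6 as well (0.651% of all names). miR-16 stood at 9181, 3900.5 and 10469 TPM in Con and at 4947, 5265 and 8904 in NHS, ranges that overlapped (log2 fold change -0.36, SE 0.47, edgeR adjusted p = 0.799). miR-15b stood at 1960.3, 942 and 2299.6 TPM in Con and 1706, 992 and 1521 in NHS (-0.31, SE 0.58), also overlapping. miR-195a had the fold change farthest from 0 of the 6, from 318, 293 and 647 TPM to 123, 131 and 389 (-1.12, SE 0.63, edgeR adjusted p = 0.576). miR-15a gave -0.41 (SE 0.46), miR-322 -0.45 (SE 0.55) and miR-497a 0.48 (SE 0.48). All 6 names overlapped between the groups, where 16.3% of the names tested did not.

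In F1 the comparison rests on 1 NHS library, set against 3 Con libraries. In the NHS library the tRNA-Ala entry stood at 7124 TPM, against 67.9 to 223.5 in F1 Con. Within F1, NHS and a high entry cannot be told apart. miRNAs took 38.3% of the reads of the NHS library, against 13.3%, 17.3% and 32.6% in F1 Con. edgeR and DESeq2 each called 0 of 6 names (0% and 1.3% of 461), and miR-15a and miR-497a had an unadjusted p under 0.05 (12.4% of all names). That library held 168 TPM of miR-497a, above the 23.1 to 32.6 of F1 Con (2.15, SE 0.62, edgeR adjusted p = 0.358), and 339 TPM of miR-15a against 67.9 to 146 (1.302, SE 0.61, edgeR adjusted p = 0.392). miR-15b stood at 1955 TPM against 263 to 805 (1.5005, SE 0.76), miR-16 at 8601 against 1630 to 5561 (0.86, SE 0.63) and miR-322 at 86.7 against 27.2 to 48.4 (0.84, SE 0.75). These 5 names were above all 3 Con libraries, but 59.4% of all names lay outside the range of F1 Con in this library. miR-195a, at 108 TPM, was inside the Con range.

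In F2 the comparison asks whether a difference is seen in males 2 generations after the exposed founders. Here 0 of 6 names passed edgeR's adjusted test (0% of 461). An unadjusted p under 0.05 was found for 3 names, miR-15a, miR-195a and miR-497a (14.5% of all names), and DESeq2 called 1, miR-15a (6.72% of all names). miR-15a stood at 98.6, 274 and 318 TPM in NHS against 58.3, 66.1 and 93.4 in Con, so the groups did not overlap, though the lowest NHS library was close to the highest control (1.33, SE 0.47, edgeR adjusted p = 0.171, DESeq2 adjusted p = 0.0413). Over the other settings its adjusted p ran from 0.0413 to 0.358. With 1 library left out its edgeR adjusted p ran from 0.0688 to 0.519, and none of these 16 fits called it. miR-497a stood at 102, 168 and 64.7 TPM in NHS against 31.8, 35.5 and 42.5 in Con (1.31, SE 0.49, edgeR adjusted p = 0.209). Its groups did not overlap either, and 16.9% of all names had groups that did not.

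The other 4 names overlapped in F2, and NHS replicate 1 was the lowest NHS library for each of them. miR-16 stood at 2280.3, 9250.5 and 8808 TPM in NHS and at 3445, 2369.6 and 3709 in Con (0.78, SE 0.47), so replicate 1 was below every control and the other two were above. miR-15b showed the same order, 233, 1744 and 1102 TPM against 992, 635 and 482 (0.21, SE 0.58). miR-195a stood at 49.3, 408 and 305 TPM against 92.6, 41.95 and 71.2 (1.60, SE 0.64, edgeR adjusted p = 0.239), and miR-322 at 71.2, 335 and 109 against 68.8, 46.6 and 98.3 (1.01, SE 0.56). NHS replicate 1 is the F2 NHS library with the high tRNA-Ala entry (3282.5 TPM). The entry was also high in F2 Con replicates 1 (18720 TPM) and 2 (5399 TPM). The smooth muscle list stood at 21107 to 34554 TPM in F2 NHS against 12105 to 29705 in F2 Con, the epithelial list at 15147 to 21419 against 6237 to 9248 and the germ cell list at 14347 to 21199 against 30491 to 34367. Skeletal and cardiac muscle names stood at 240 to 969 TPM in F2 NHS against 91.8 to 165 in F2 Con. Red blood cell names stood at 9240 to 24445 against 4403 to 11774, and leukocyte names at 984 to 2428 against 1088 to 2839. Their part in the family's values was not tested.

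Averaged over the generations, with F1 resting on the single NHS library, the NHS effect farthest from 0 was that of miR-497a (1.31, SE 0.31, edgeR adjusted p = 0.104, DESeq2 adjusted p = 0.00414). Its call depended on the tool and the scaling: of the other settings, DESeq2 and scaling to library totals (0.0265) called it and the other 5 did not, with an adjusted p of up to 0.261. In all, edgeR called 0 of 6 names (0% of 461), with 2 at an unadjusted p under 0.05 (11.5% of all names), and DESeq2 called 1 (1.95%). A difference of the NHS effect between generations was called for 0 of 6 names by edgeR (0% of 461) and 0 by DESeq2 (5.21%). miR-15a and miR-195a had an unadjusted p under 0.05 there (17.4% of all names), each lower in F0 NHS than in F0 Con and higher in F2 NHS than in F2 Con by their fold changes.

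Beneath the sums, the reads of a name were divided between its strands very differently from library to library. The share listed as 5p ran from 5.10% to 96.1% for miR-15b, from 1.75% to 95.9% for miR-497a, from 10.2% to 93.2% for miR-15a, from 3.31% to 92.03% for miR-195a and from 4.32% to 85.99% for miR-322. For miR-16, whose 3p strands of both copies count together, it ran from 2.66% to 74.6%. The 6 strands whose reference sequence carries the seed AGCAGCA were listed with 8.74% to 69.9% of the family's reads. Their listed share exceeded 50% in 5 of 16 libraries. Replicates of one group lay far apart: the seed strands summed to 5352, 625 and 1302 TPM in F0 Con and to 265, 3183 and 3938 TPM in F1 Con.

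**Figure D3:**
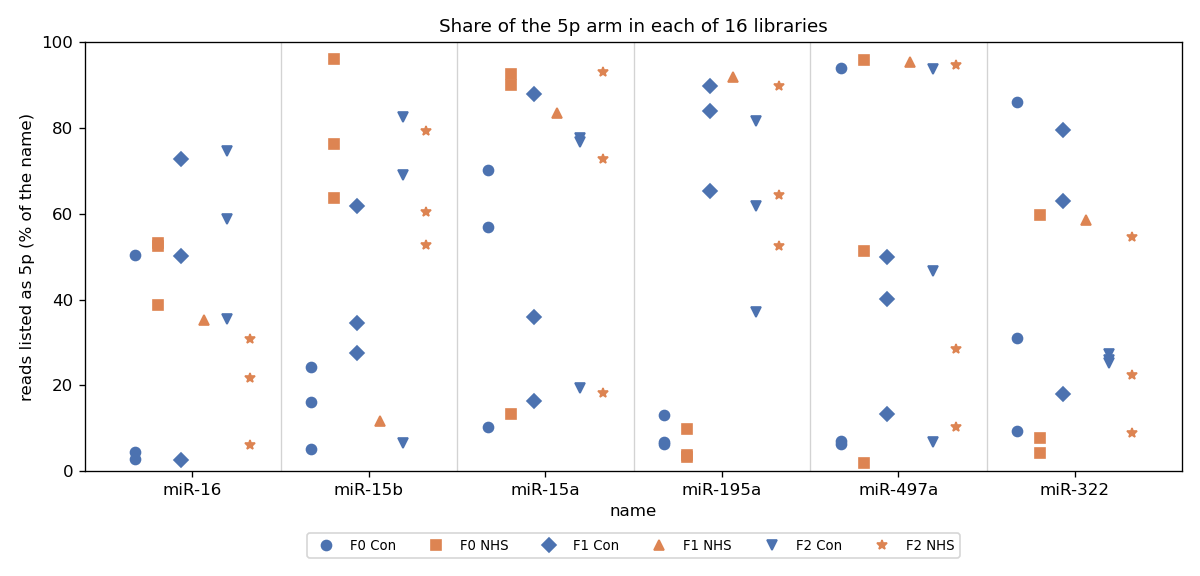
Share of the reads of each name that was listed as the 5p strand (y axis, %), one point per library, in 6 groups side by side. Each name runs over much of the axis across the 16 libraries. Single groups range from wide (miR-497a in F0 Con, 6.38% to 94.0%) to narrow (miR-322 in F2 Con, 25.3% to 27.2%). miR-195a stays at 13.04% or less in all 6 F0 libraries and at 37.2% or more in all 10 F1 and F2 libraries.

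Such spread was common among miRNAs with both strands but not general. Among 182 names with 1 listed strand per arm and at least 100 reads in every library, the median range of the 5p share over the 16 libraries was 63.7 points. The range exceeded 80 points in 56 names (30.8%) and in all 5 family names of this kind, at 81.7 to 94.1 points. It stayed below 5 points in 33 names (18.1%), among them miR-143, with a 5p share of at most 0.0773%, and miR-22, with at most 0.762%, both chosen after their values were seen. The spread within groups fell once strands were added: the SD of log2(TPM + 1) was 1.07 to 2.07 for the 13 listed members (median 1.49) and 0.47 to 1.02 for the 6 names (median 0.78), against medians of 0.99 over the single strands and 0.72 over the sums of the 182 names. The cause of the spread between strands was not tested.

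As listed, the strands of miR-195a divided by generation. The 5p share was 6.71%, 13.04% and 6.24% in F0 Con and 3.31%, 3.79% and 9.80% in F0 NHS. In F1 it was 89.9%, 65.3% and 84.1% in Con and 92.03% in NHS, and in F2 it was 81.6%, 61.7% and 37.2% in Con and 64.5%, 89.9% and 52.6% in NHS. The F0 libraries thus lay below all later ones, with a gap from 13.04% to 37.2%. mmu-miR-195a-3p stood at 255 to 606 TPM in F0 Con against 3.63 to 42.7 in F1 Con and 16.05 to 44.7 in F2 Con, and mmu-miR-195a-5p at 21.3 to 40.4, 32.4 to 88.6 and 25.9 to 75.5. For miR-195a-3p the log2 fold changes were -3.35 (SE 0.94, edgeR adjusted p = 0.124, DESeq2 adjusted p = 0.00519) and -3.53 (SE 0.94, edgeR adjusted p = 0.0925, DESeq2 adjusted p = 0.00265). By edgeR 0 of 13 members were called in these comparisons, against 0% and 0.272% of the 735 miRNAs tested. DESeq2 called 2 of 13 in F1 Con against F0 Con (miR-195a-3p and miR-322-3p, 9.25% of all) and 2 of 13 in F2 Con against F0 Con (miR-195a-3p and miR-16-2-3p, 11.8% of all). The pattern was seen in the values, and the share was not tested between generations. How many of the 182 names divide in this way was not counted, so the pattern cannot be called particular to miR-195a.

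miR-16 was made up differently from library to library. mmu-miR-16-5p led in 7 libraries, miR-16-2-3p in 5 and miR-16-1-3p in 4. In F0 Con alone, miR-16-5p took 50.4%, 4.54% and 2.76% of the miR-16 reads and miR-16-2-3p 3.49%, 59.5% and 94.1%. miR-16-2-3p stood at 34.3, 54.1 and 41.4 TPM in F2 Con and at 1210.5, 1425 and 6398 in F2 NHS. All 3 NHS libraries were above all 3 controls (5.81, SE 1.59), with an edgeR adjusted p = 0.246 and a DESeq2 adjusted p = 0.000934. Without the filter on low counts edgeR gave 0.00669, and the fold change was 4.75 without F2 NHS replicate 3. In F0 it went the other way, from 321, 2321 and 9848 TPM in Con to 33.9, 864 and 113 in NHS (-3.62, SE 1.44, edgeR adjusted p = 0.693), with overlap. The difference of its NHS effect between generations had an edgeR adjusted p = 0.288 and a DESeq2 adjusted p = 0.00553.

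**Figure D4:**
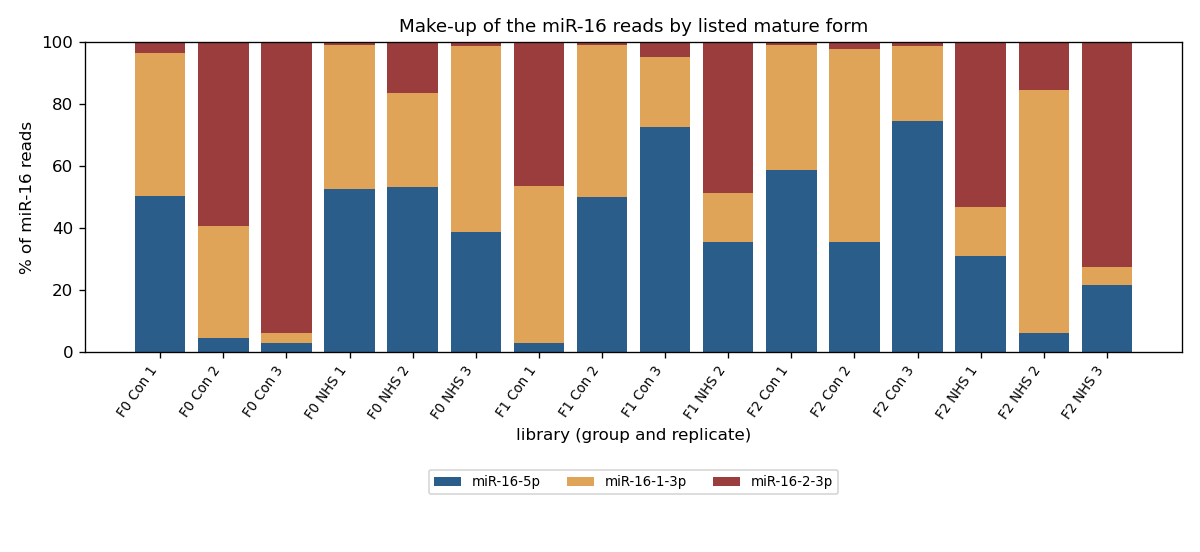
Bars show, for each of the 16 libraries, how the reads of miR-16 divide into miR-16-5p, miR-16-1-3p and miR-16-2-3p (y axis, % of miR-16 reads). Libraries of one group differ widely, as in F0 Con, where miR-16-2-3p takes 3.49%, 59.5% and 94.1%.

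The strands of miR-15b lay in opposite order in the F0 groups, while the sums overlapped. mmu-miR-15b-3p stood at 1860.4, 713 and 1928 TPM in F0 Con and at 66.3, 359.6 and 361 in F0 NHS, all 3 below the controls (-2.65, SE 0.80, edgeR adjusted p = 0.688, DESeq2 adjusted p = 0.0963). mmu-miR-15b-5p stood at 99.98, 229 and 372 TPM in Con and at 1639.6, 633 and 1159.7 in NHS, all 3 above them (2.10, SE 1.02, edgeR adjusted p = 0.728). The 5p share was 5.10%, 24.3% and 16.2% in F0 Con and 96.1%, 63.8% and 76.3% in F0 NHS. An exact permutation test of that share, two-sided, gave p = 0.1, the smallest that 3 against 3 libraries allow, and 0.9 after Benjamini-Hochberg adjustment over the 18 tests of 6 names in 3 generations. In the later generations miR-15b was 11.7% 5p in F1 NHS against 27.5% to 61.9% in F1 Con, and 52.8% to 79.2% in F2 NHS against 6.63% to 82.6% in F2 Con.

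The only other share with an exact permutation p of 0.1 was that of miR-16 in F2, where 5p took 30.9%, 5.96% and 21.6% in NHS and 58.9%, 35.5% and 74.6% in Con (adjusted p = 0.9). The remaining 16 shares had an exact p of 0.2 or more, and in F1, with 1 library against 3, none could go below 0.25.

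Of the 13 listed members, edgeR called 0 in F0, F1 and F2, as it did of all 735 miRNAs tested (0% in each). At an unadjusted p under 0.05 there were 2 in F0 (miR-15b-3p and miR-16-2-3p, 6.12% of all), 0 in F1 (6.39%) and 1 in F2 (miR-16-2-3p, 11.2%). Groups did not overlap for 2 of 13 in F0, both strands of miR-15b (12.7% of all), and for 1 of 13 in F2 (16.3%). DESeq2 called 0 in F0 (0.136% of all), 0 in F1 (0.952%) and 1 in F2 (4.08%). The median log2 fold change of the members was 0.11 in F0, 0.03 in F1 and 1.12 in F2, against -0.09, -0.39 and 0.15 over all miRNAs tested. Over the generations, the mean NHS effect was called for 0 members by edgeR (0% of all, with 0 at an unadjusted p under 0.05, 7.76% of all) and 0 by DESeq2 (1.63%). Its difference was called for 0 by edgeR (0%, with 2 at an unadjusted p under 0.05, 9.93% of all) and for 1 by DESeq2 (miR-16-2-3p, 1.5%). The strands not yet given ran over the 16 libraries from 12.8 to 348 TPM (mmu-miR-15a-5p), 8.17 to 458.2 (mmu-miR-15a-3p), 7.18 to 527 (mmu-miR-322-5p), 5.55 to 446 (mmu-miR-322-3p), 2.83 to 334 (mmu-miR-497a-5p) and 1.97 to 702 (mmu-miR-497a-3p), and each overlapped between NHS and Con in F0 and in F2. Between the control groups edgeR called 0 of 13 (0%), with 4 at an unadjusted p under 0.05 (19.7% of all), and DESeq2 called 3, miR-16-2-3p, miR-195a-3p and miR-322-3p (11.7%).

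**Figure D5:**
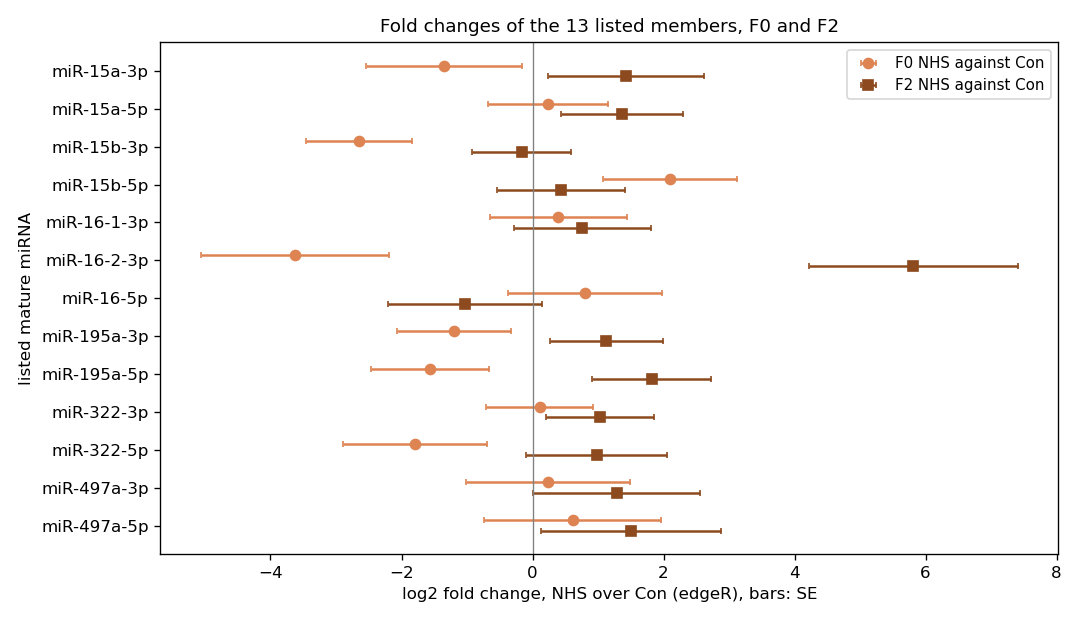
log2 fold changes (x axis, edgeR) with SE (bars) of the 13 listed members for NHS against Con in F0 and F2. miR-16-2-3p lies at -3.62 in F0 and 5.81 in F2, and both strands of miR-15b lie on opposite sides of 0 in F0.

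The genes next to the members were described from a list of 7 names, miR-195b, miR-497b, miR-503, miR-351, miR-542, miR-450a and miR-450b, which take in the X-linked cluster of Mir322. Of its 13 listed mature miRNAs, 10 passed the filter, in 5 names. Between NHS and Con edgeR called 0 of these 5 names in each generation (0% of 461). DESeq2 called 0 as well, beside 0.651%, 1.3% and 6.72% of all names in F0, F1 and F2. miR-450a in F0 alone had an unadjusted p under 0.05, beside 9.76%, 12.4% and 14.5% of all names. Groups did not overlap for 2 of 5 names in F0 (16.3% of all names), 3 in F1 (59.4%) and 0 in F2 (16.9%). In F1 Con against F0 Con edgeR called 1, miR-450a (-1.91, SE 0.53, edgeR adjusted p = 0.0371), beside 11.9% of all names. An unadjusted edgeR p under 0.05 was found for 4 (31.2% of all names), and DESeq2 called 1 of 5 (24.3% of all names). All 5 names lay below F0 Con in TPM without overlap there, and 38.6% of all names had groups that did not overlap. Fold changes, which are TMM scaled, were -0.28 for miR-351, -1.01 for miR-542, -1.37 for miR-503 and -1.95 for miR-450b. Levels were low: the 10 strands kept had F1 Con means from 0.21 TPM (miR-450a-5p) to 4.75 TPM (miR-542-5p). F2 Con against F0 Con called 0 of 5 by edgeR (9.98% of all names) and 0 by DESeq2 (21.3%), with 3 at an unadjusted p under 0.05 (28.6%).

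By Spearman correlation of log2(TPM + 1) over the 16 libraries, the names most like miR-16 were miR-195a (0.93), miR-15a (0.90), miR-15b (0.88), miR-17 (0.87) and miR-216a (0.83). The median over 460 names was 0.31. miR-322 (0.74) and miR-497a (0.54) came at places 25 and 114. For miR-15b the nearest were miR-16 (0.88), miR-883a (0.87) and miR-15a, miR-511 and miR-701 (0.84 each), with miR-195a (0.81) at place 12. TPM values of all names in a library move with its miRNA share, so the correlations describe only how levels went together.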

How the data were processed

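Small RNA of ICR mouse sperm was measured in 18 libraries. The authors deposited read counts and TPM values for each small RNA and library, per the file headers. The deposited TPM equal the count divided by the library total, times 1000000, which held for 100% of the values. The lists of the F1 NHS libraries and of F2 NHS replicates 2 and 3 do not hold all reads. They hold 42.3% in F1 NHS replicate 2, and 35.7% and 40.3% in F2 NHS replicates 2 and 3. For these libraries the total was itself inferred from counts and TPM, so the check is not independent there. The submitters' processing notes name build mm10; aligner, counter and filters: not given in the sources used here. Libraries whose lists hold the known miRNAs whole were used, 16 of 18. Counts per listed miRNA, and summed per name, were fitted in 1 model of 6 group means with edgeR 4.0.16 (TMM, quasi-likelihood F test, R 4.3.3), keeping miRNAs at 1 CPM or more in 3 libraries or more. This left 735 listed miRNAs and 461 names. p-values were adjusted by Benjamini-Hochberg over all of them, threshold 0.05, two-sided. DESeq2 1.42.0, other scalings, no filter, a replicate block, a term for the libraries high in tRNA-Ala reads, fits of the compared groups alone and leaving out each library were alternatives. Tests of the summed names over generations and between control groups, and fits on the 10 libraries low in tRNA-Ala reads (entry below 1000 TPM), were added after seeing the data. 5p shares were compared by exact permutation (Python 3.11.15). Sequences are from RefSeq (GRCm38.p6), annotation from GENCODE. The scripts were tested on simulated data. All family members were named; neighbours, markers and members were chosen with earlier results of these data known. Depth covers counting error only, because no molecular identifiers mark which reads came from one molecule.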

Additional observations from a re-analysis of the deposited data

How the results depend on the processing

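Between NHS and Con, 0 members and 0 names were called by edgeR in F0, F1 and F2 under each scaling and each library left out, except that without the filter 1 listed member was called in F2 and 1 for the difference between generations. DESeq2 called 1 member in each of these, 1 name in F2 and 1 name for the mean effect, which scaling to library totals also called (1). Between control groups the listed members called rose from 0 to 3 with DESeq2, 2 with library totals and 2 without the filter. For names the count of 2 became 4 with DESeq2, 4 with library totals and 1 with miRNA totals, and 1 to 3 with 1 library left out. F1 Con against F0 Con called 4 with library totals and 0 to 2 with 1 library left out. F2 Con against F0 Con called 1 with miRNA totals, 1 with the tRNA-Ala term, 0 in the 10 libraries low in tRNA-Ala reads (2 of 3 F2 Con libraries are high) and 0 to 4 with 1 library left out. The causes were not tested.

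Same-numbered Con and NHS libraries deviated together in some pairs only (correlations 0.30, -0.51 and -0.48 in F0, 0.11, -0.01 and 0.27 in F2), so the numbers were not taken as pairs. With a replicate block, edgeR called 0 names in F0, F1 and F2 and 2 over the 3 control groups. In F2 Con against F0 Con the block took the names called from 3 to 2, ending the call of miR-322 (-1.95, edgeR adjusted p = 0.0595).

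Signs that changed belonged to fold changes past no threshold. miR-195a in F1 NHS became -0.22 with DESeq2 and with median ratio size factors, -0.63 with miRNA totals, -0.13 with the compared groups alone and -0.14 with the block, and ran from -0.42 to 0.38 with 1 library left out. miR-15b in F2 was -0.17 with the tRNA-Ala term and -0.41 to 0.58 with 1 library left out. The mean effect on miR-195a ran from -0.0644 to 0.30, and miR-16 in F1 Con against F0 Con from -0.53 to 0.26, or 0.37 with miRNA totals. In the low tRNA-Ala libraries of F0, miR-15a-5p was -0.15, miR-16-1-3p -0.0715 and miR-497a-3p -0.67; miR-322-3p was -0.0756 with the tRNA-Ala term, and miR-15b-3p in F2 0.067 with library totals. With 1 library left out, F0 fold changes ran from -0.23 to 0.84 for miR-15a-5p, -0.12 to 1.45 for miR-16-1-3p, -0.29 to 1.13 for miR-322-3p, -3.31 to 0.0253 for miR-322-5p, -0.98 to 0.998 for miR-497a-3p and -0.29 to 3.16 for miR-497a-5p. In F2 they ran from -0.54 to 2.36 for miR-15a-3p, -0.52 to 0.23 for miR-15b-3p, -0.39 to 0.90 for miR-15b-5p and -1.71 to 1.25 for miR-16-1-3p. Differences in 5p share (points, NHS minus Con) ran in F2 from -15.8 to 25.03 for miR-15a, -11.7 to 26.3 for miR-15b, -2.70 to 19.5 for miR-195a, -10.4 to 12.4 for miR-322 and -29.6 to 17.9 for miR-497a, in F1 from -26.1 to 8.92 for miR-16 and -12.6 to 18.2 for miR-322, and in F0 from -36.1 to 3.80 for miR-322 and -9.24 to 42.9 for miR-497a. The F1 NHS to Con ratio of the family's share was 1.23 of miRNA reads and 2.34 of all reads.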
